A study of Mus musculus with 12 samples.

Results

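The 8 genes described here, Mog, Mag, Cnp, Opalin, Ermn, Aspa, Tspan2 and Plekhb1, encode proteins of the outer surface and the cytoplasm-filled, non-compact parts of the myelin sheath. They were listed by name and by no threshold on a value, although earlier results of these data were known when the list was made. Their peaks are the rows of the deposited peak lists that carry 1 of these names. That gave 333 of 269580 peaks and 8 of 23433 genes with a peak in any list.

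The data are maps of H4K8ac, acetylation of lysine 8 of histone H4, made by chromatin immunoprecipitation and sequencing with an Active Motif antibody (61103). Per the labels, oligodendrocyte progenitor cells (OPCs) were sorted from the forebrain of PdgfrαH2BEGFP mice, a reporter line in which a histone-bound green fluorescent protein is made where Pdgfra is active. Animals were at postnatal day 5 (neonatal, 3 libraries) or postnatal day 60 (adult, 3 libraries), and both ages carried the same reporter and received no treatment that the labels mention. Pdgfra is also active in other brain cells such as fibroblasts, so the reporter by itself does not limit the sort to OPCs. Fixation was with 1% paraformaldehyde during purification of nuclei, and each library started from 2 ng of immunoprecipitated DNA. The labels call the 3 libraries of an age biological replicates and do not say how many animals went into each. The 6 input libraries were not analysed here.

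Myelin is the multilayered membrane that oligodendrocytes wrap around axons. Most of it is compacted, but cytoplasm remains in the innermost and outermost layers, in the loops that flank each node and in channels through the sheath, and a distinct set of proteins works there. These genes are known as late genes of the lineage that are switched on as a progenitor becomes an oligodendrocyte, and H4K8ac is a mark found on promoters and enhancers of active genes.

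Mog (myelin oligodendrocyte glycoprotein) lies on the outermost face of the sheath, and Mag (myelin-associated glycoprotein) on the innermost face, where it binds the axon. Opalin is a glycosylated membrane protein of oligodendrocytes, and Tspan2 is a tetraspanin, a small protein that spans the membrane repeatedly and organises other membrane proteins. Cnp (2′,3′-cyclic nucleotide 3′-phosphodiesterase) keeps cytoplasmic channels open in myelin, Ermn (ermin) binds the actin cytoskeleton, and Plekhb1 is a membrane-associated protein with a pleckstrin homology domain. Aspa (aspartoacylase) is the enzyme that splits N-acetylaspartate, which neurons supply, and so provides acetate.

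To show where the mark lies at these genes, the bases just upstream of the start sites of 5 of them are given from RefSeq (GRCm38.p6). They run 5′ to 3′ in the direction of transcription and, except for Cnp, end at the base before the most upstream start site of the table. The Cnp window was cut to 215 bases and ends before the start at 100574904 in the peak lists. Capitals mark bases that lie under a peak in all 3 adult libraries, whatever gene the peak was assigned to. All 8 genes were matched in the table. Opalin and Cnp are shown as starts that lay inside the mark, Mog and Ermn as starts with a peak-free stretch in front of them, and Mag as a start where the adult libraries differed.
Mog, minus strand, chr17:37023399-37023648: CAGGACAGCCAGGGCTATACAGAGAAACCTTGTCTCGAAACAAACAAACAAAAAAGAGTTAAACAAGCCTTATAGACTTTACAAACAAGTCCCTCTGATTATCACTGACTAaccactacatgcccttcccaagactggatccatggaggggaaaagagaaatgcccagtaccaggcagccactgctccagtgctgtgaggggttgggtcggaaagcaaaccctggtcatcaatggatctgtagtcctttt
Mag, minus strand, chr7:30914923-30915172: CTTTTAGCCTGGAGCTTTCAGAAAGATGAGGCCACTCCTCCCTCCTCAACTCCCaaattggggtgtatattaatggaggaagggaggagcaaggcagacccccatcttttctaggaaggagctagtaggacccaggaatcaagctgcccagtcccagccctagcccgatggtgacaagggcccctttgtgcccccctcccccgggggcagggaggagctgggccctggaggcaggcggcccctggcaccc
Cnp, plus strand, chr11:100574689-100574903: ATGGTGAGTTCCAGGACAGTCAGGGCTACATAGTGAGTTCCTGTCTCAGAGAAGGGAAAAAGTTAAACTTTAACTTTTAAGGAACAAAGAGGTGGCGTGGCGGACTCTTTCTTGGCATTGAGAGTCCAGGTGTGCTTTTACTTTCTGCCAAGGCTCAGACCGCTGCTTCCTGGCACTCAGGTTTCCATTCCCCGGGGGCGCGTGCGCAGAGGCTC
Opalin, minus strand, chr19:41077114-41077363: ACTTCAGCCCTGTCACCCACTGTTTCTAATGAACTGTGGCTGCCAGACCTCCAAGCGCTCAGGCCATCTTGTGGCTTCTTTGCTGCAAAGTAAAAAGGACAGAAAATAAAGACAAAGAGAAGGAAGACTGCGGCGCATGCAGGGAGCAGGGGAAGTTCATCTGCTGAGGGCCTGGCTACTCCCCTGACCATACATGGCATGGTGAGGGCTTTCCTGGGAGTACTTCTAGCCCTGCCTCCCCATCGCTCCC
Ermn, minus strand, chr2:58052865-58053114: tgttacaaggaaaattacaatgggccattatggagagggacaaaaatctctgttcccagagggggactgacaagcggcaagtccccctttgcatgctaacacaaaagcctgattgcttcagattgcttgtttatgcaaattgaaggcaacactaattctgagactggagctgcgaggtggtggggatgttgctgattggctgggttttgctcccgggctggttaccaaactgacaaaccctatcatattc

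All 250 bases of the Opalin window and all 215 of the Cnp window were under a peak in each adult library. Of the 250 Mog bases, 111 were covered in all 3 adult libraries, all of them at the far end from the gene. In the Mag window 98, 54 and 250 bases were covered in adult replicates 1, 2 and 3. In the Ermn window 247 of 250 bases were covered in no adult library. In the neonatal libraries the only bases covered in these 5 windows were 35 of the Cnp window, in replicate 2.

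The peak-free stretches at the starts had flanks that were covered on both sides. At Mog no adult library had a peak from position -103 to position 79 relative to the start, a gap of 183 bp. At Ermn the gap was 272 bp, from position -275 to position -4, and at Aspa it was 368 bp, from position -462 to position -95 of the most upstream Aspa start in the lists. Mag, Cnp, Opalin and Tspan2 had no position within 600 bp of the start that was free of peaks in all 3 adult libraries. At Plekhb1 positions 98 to 600 were free, up to the edge of the stretch examined.

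The letters of the 5 windows were searched on both strands for short motifs. CTGGCAC, a spelling of the motif of the myelin regulator MYRF, occurred in the Mag and Cnp windows and in 4.19% of the 32851 upstream windows of the table, and the spelling CTGGTAC occurred in the Mog window and in 1.83% of all windows. ACAAAG, a spelling of the motif of SOX factors, occurred in the Mag, Cnp and Opalin windows and in 16.5% of all windows. The spelling AACAAT (9.42% of all windows), the TATA box TATAAA (12.4%), the E-box CAGCTG (13.0%) and the GC box GGGCGG (32.7%) were in none of the 5. This holds for the 5 windows shown and not for all 8 genes: the table's window of Aspa, which precedes an internal start, held 3 matches of TATAAA, 1 of CAGCTG and 1 of AACAAT. The windows held 2 (Mog), 3 (Mag), 7 (Cnp), 4 (Opalin) and 3 (Ermn) CpG pairs, against a median of 6 over all windows, and a GC content of 46.8%, 61.2%, 52.1%, 54.4% and 47.2%, against a median of 52.4%. A window at an internal start of Tspan2 held 17 CpG pairs. These matches describe letters, and binding of a factor was not measured.

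The libraries differed widely in how much was called, and this touches every value below. The neonatal lists held 7353 to 31189 peaks over 2.33 to 13.7 Mb and the adult lists 72278 to 77002 peaks over 41.9 to 60.9 Mb. Mean peak width was 317 to 440 bp in neonatal and 579 to 791 bp in adult lists. Neonatal replicate 2 stood apart, with 31189 peaks against 9097 and 7353 in replicates 1 and 3. Read depth is unknown for all libraries. Because sorted cells were measured in bulk, fewer cells with the mark and less mark per cell cannot be told apart.

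In neonatal cells the 8 genes together had 4, 20 and 4 peaks in replicates 1, 2 and 3, and in adult cells 115, 96 and 94. These peaks covered 2.22, 8.03 and 1.04 kb in the neonatal libraries and 77.9, 79.8 and 116 kb in the adult libraries. Per Mb of all covered bases the 8 genes held 0.745, 0.585 and 0.446 kb in the neonatal and 1.86, 1.80 and 1.91 kb in the adult libraries. On both scales the lowest adult value was above the highest neonatal value, so the gap between the ages at these genes was larger than that of the lists as a whole.

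**Figure D1:**
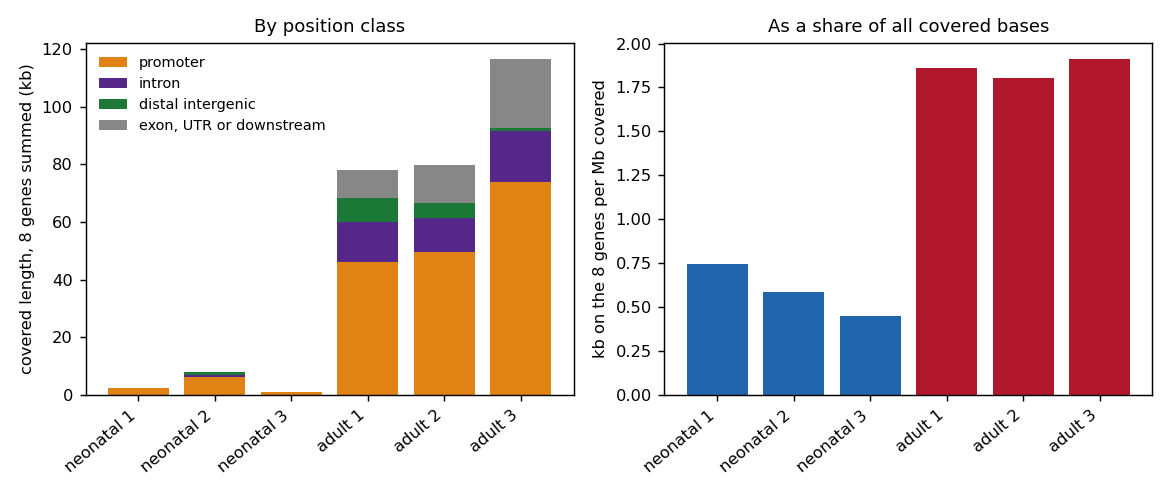
Covered length of the 8 genes summed (left, kb, stacked by position class) and as kb per Mb of all covered bases (right) in each of the 6 libraries, each bar 1 library. The neonatal bars reach at most 8.03 kb and 0.745 kb per Mb, and the adult bars start at 77.9 kb and 1.80 kb per Mb.

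Covered length, the number of bases under the peaks assigned to a gene, was higher in every adult library than in every neonatal library for 8 of 8 genes, and the same held for 60.0% of all genes with a peak. The median difference in covered length between the ages was 10432 bp over the 8 genes and 661 bp over all genes. For each of the 8 genes the two-sided exact permutation test of 3 libraries against 3 gave p = 0.1, the smallest value this design allows, and an adjusted p of 0.166 over all genes (Benjamini-Hochberg). No single gene could therefore pass 0.05, and the sizes below are given with their spread between libraries. The 8 differences lay between the 91.7 and 98.5 percentiles of the differences of all genes.

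**Figure D2:**
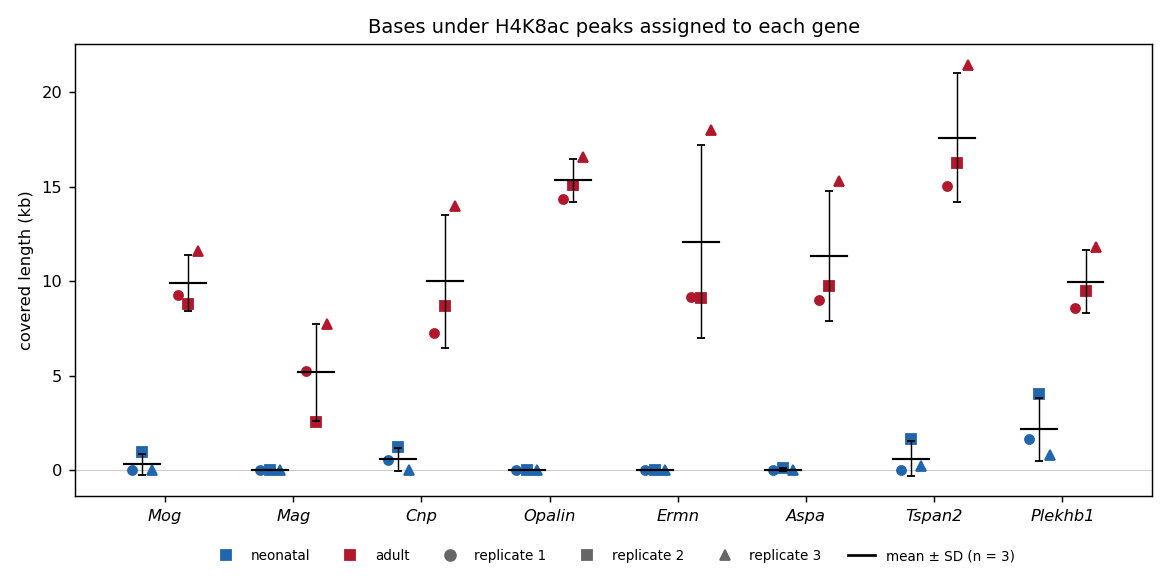
Bases under H4K8ac peaks assigned to each gene (kb, vertical axis) in each library, neonatal in blue and adult in red, with the replicate shown by the symbol, the mean as a black line and the SD over 3 libraries as an error bar. For each of the 8 genes the red points lie above the blue points, with the smallest gap between the ages at Mag and the highest neonatal points at Plekhb1.

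Among the surface proteins, Mog (chromosome 17, 37010743 to 37023398, minus strand, ENSMUSG00000076439.12) had covered lengths of 0, 0.958 and 0 kb in neonatal replicates 1, 2 and 3 and 9.29, 8.81 and 11.6 kb in the adult replicates. The 2 neonatal peaks were distal, at -4960 and -5404 bp from the start, and lay in a stretch that was also under a peak in the adult libraries, while no neonatal library had a Mog promoter peak. The means were 0.319 ± 0.553 kb in neonatal and 9.90 ± 1.49 kb in adult libraries (SD, n = 3 each). The number of peaks described Mog poorly: adult replicates 1, 2 and 3 had 9, 10 and 2 peaks over a similar length, because replicate 3 held 1 peak of 6987 bp upstream of the start and 1 of 4611 bp over its downstream side. When peaks within 1000 bp were joined, the widest Mog domain was 11525, 10827 and 11782 bp in the 3 adult libraries and 1115 bp in neonatal replicate 2.

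Mag (chromosome 7, 30899176 to 30914873, minus strand, ENSMUSG00000036634.15) had no peak in any neonatal library. Its covered length in the adult libraries was 5.24, 2.57 and 7.73 kb, a mean of 5.18 ± 2.58 kb (SD, n = 3). This was the lowest adult mean of the 8 genes. In adult replicate 2 a peak 246 bp upstream of the start was not assigned to Mag. Counted by position, over the gene and 10 kb on each side, Mag held 7.76, 6.61 and 8.33 kb in the adult libraries. The neonatal libraries held 0 kb by position. Adult replicates 1 and 2 had a widest peak of 1935 and 1952 bp, from about the start into the gene, and replicate 3 had 1 of 5450 bp (30912891 to 30918340) that reached over the start to the upstream side. Intronic peaks of Mag numbered 3, 2 and 3 in the adult libraries.

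Opalin (chromosome 19, 41061710 to 41077113, minus strand, ENSMUSG00000050121.9) also had no neonatal peak. Its adult covered lengths of 14.3, 15.1 and 16.5 kb were close to each other, with a mean of 15.3 ± 1.13 kb (SD, n = 3). Much of this length lay outside the gene: between 54.9% and 59.8% of it, 8.29 to 9.09 kb, was in peaks inside the upstream neighbour Tll2 only, and these peaks were given to Opalin because its start is the nearest. Without peaks that lie only inside other genes, Opalin kept 5.75, 6.81 and 7.45 kb in the adult libraries and 0 kb in the neonatal libraries. Its widest adult peaks (2639, 4406 and 5936 bp) belonged to that upstream stretch. Promoter peaks of Opalin numbered 8, 7 and 8 in the adult libraries.

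Tspan2 (chromosome 3, 102734529 to 102801513, plus strand, ENSMUSG00000027858.13) had covered lengths of 0, 1.67 and 0.221 kb in the neonatal and 15.05, 16.2 and 21.4 kb in the adult libraries. With 17.6 ± 3.40 kb (SD, n = 3) it had the longest adult coverage of the 8 genes, and its neonatal mean was 0.632 ± 0.909 kb (SD, n = 3). Neonatal replicates 2 and 3 had promoter peaks over the start, of at most 1122 bp. At the same place the adult libraries had single peaks of 5733, 5851 and 7293 bp. Intronic peaks of Tspan2 numbered 10, 11 and 10 in the adult libraries, and most of them lay in a second cluster inside the gene, beside peaks that counted as promoter peaks of internal start sites.

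Among the cytoplasmic proteins, Cnp (chromosome 11, 100574904 to 100591729, plus strand, ENSMUSG00000006782.16) had covered lengths of 0.549, 1.24 and 0 kb in the neonatal and 7.26, 8.72 and 13.98 kb in the adult libraries. The means were 0.595 ± 0.619 and 9.99 ± 3.54 kb (SD, n = 3 each). All adult Cnp peaks, 4 in each library, were promoter peaks. The widest lay downstream of the start over the gene and was 4196, 5924 and 9990 bp in adult replicates 1, 2 and 3, the last (100575820 to 100585809) being the widest peak of any of the 8 genes. Neonatal replicates 1 and 2 had promoter peaks of at most 613 bp at the start. Of the adult length, 16.5% to 22.9% lay in peaks inside the neighbour Ttc25 only.

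Ermn (chromosome 2, 58045113 to 58052864, minus strand, ENSMUSG00000026830.9) had no neonatal peak and adult covered lengths of 9.14, 9.13 and 18.0 kb, a mean of 12.1 ± 5.10 kb (SD, n = 3). It was covered by many short peaks, 18, 18 and 22 in the adult libraries, of which 9, 8 and 11 were intronic. Intronic here means inside an intron of any gene. By the gene bounds of RefSeq, 17.5% to 35.0% of the length lay in peaks inside the downstream neighbour Galnt5 only. This share leaves out further Ermn peaks in each adult library, which the authors' annotation puts in an intron of Galnt5 beyond those bounds. The widest Ermn peak was 1116, 1108 and 3201 bp in the adult libraries, so adult replicate 3 gave both the longest coverage and the widest peak.

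Plekhb1 (chromosome 7, 100642892 to 100662414, minus strand, ENSMUSG00000030701.17) was the only one of the 8 genes with peaks in all 3 neonatal libraries. Its covered lengths were 1.67, 4.02 and 0.820 kb in the neonatal and 8.59, 9.50 and 11.8 kb in the adult libraries, with means of 2.17 ± 1.66 and 9.97 ± 1.67 kb (SD, n = 3 each). Most neonatal peaks, and the widest adult peaks (2737, 2743 and 6155 bp), lay over internal start sites within the gene and not at its most upstream start. Per Mb of all covered bases the order turned round: Plekhb1 held 561, 293 and 352 bp in the neonatal and 205, 215 and 194 bp in the adult libraries, so every neonatal library was above every adult one. Its gain in covered length was thus smaller than that of the lists as a whole.

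The enzyme gene Aspa (chromosome 11, 73304992 to 73326807, minus strand, ENSMUSG00000020774.9) had 1 neonatal peak, of 147 bp, in replicate 2. Its adult covered lengths were 8.98, 9.73 and 15.3 kb, and the means were 0.0490 ± 0.0849 kb in neonatal and 11.3 ± 3.44 kb in adult libraries (SD, n = 3 each). As with Ermn the length was made of many peaks, 23, 20 and 18. Much of it lay around and beyond the 3′ end of the gene, with 24.3% to 36.6% in peaks inside Spata22 or Trpv3 only. Promoter peaks made up 2.07, 2.23 and 4.80 kb of the adult length.

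**Figure D3:**
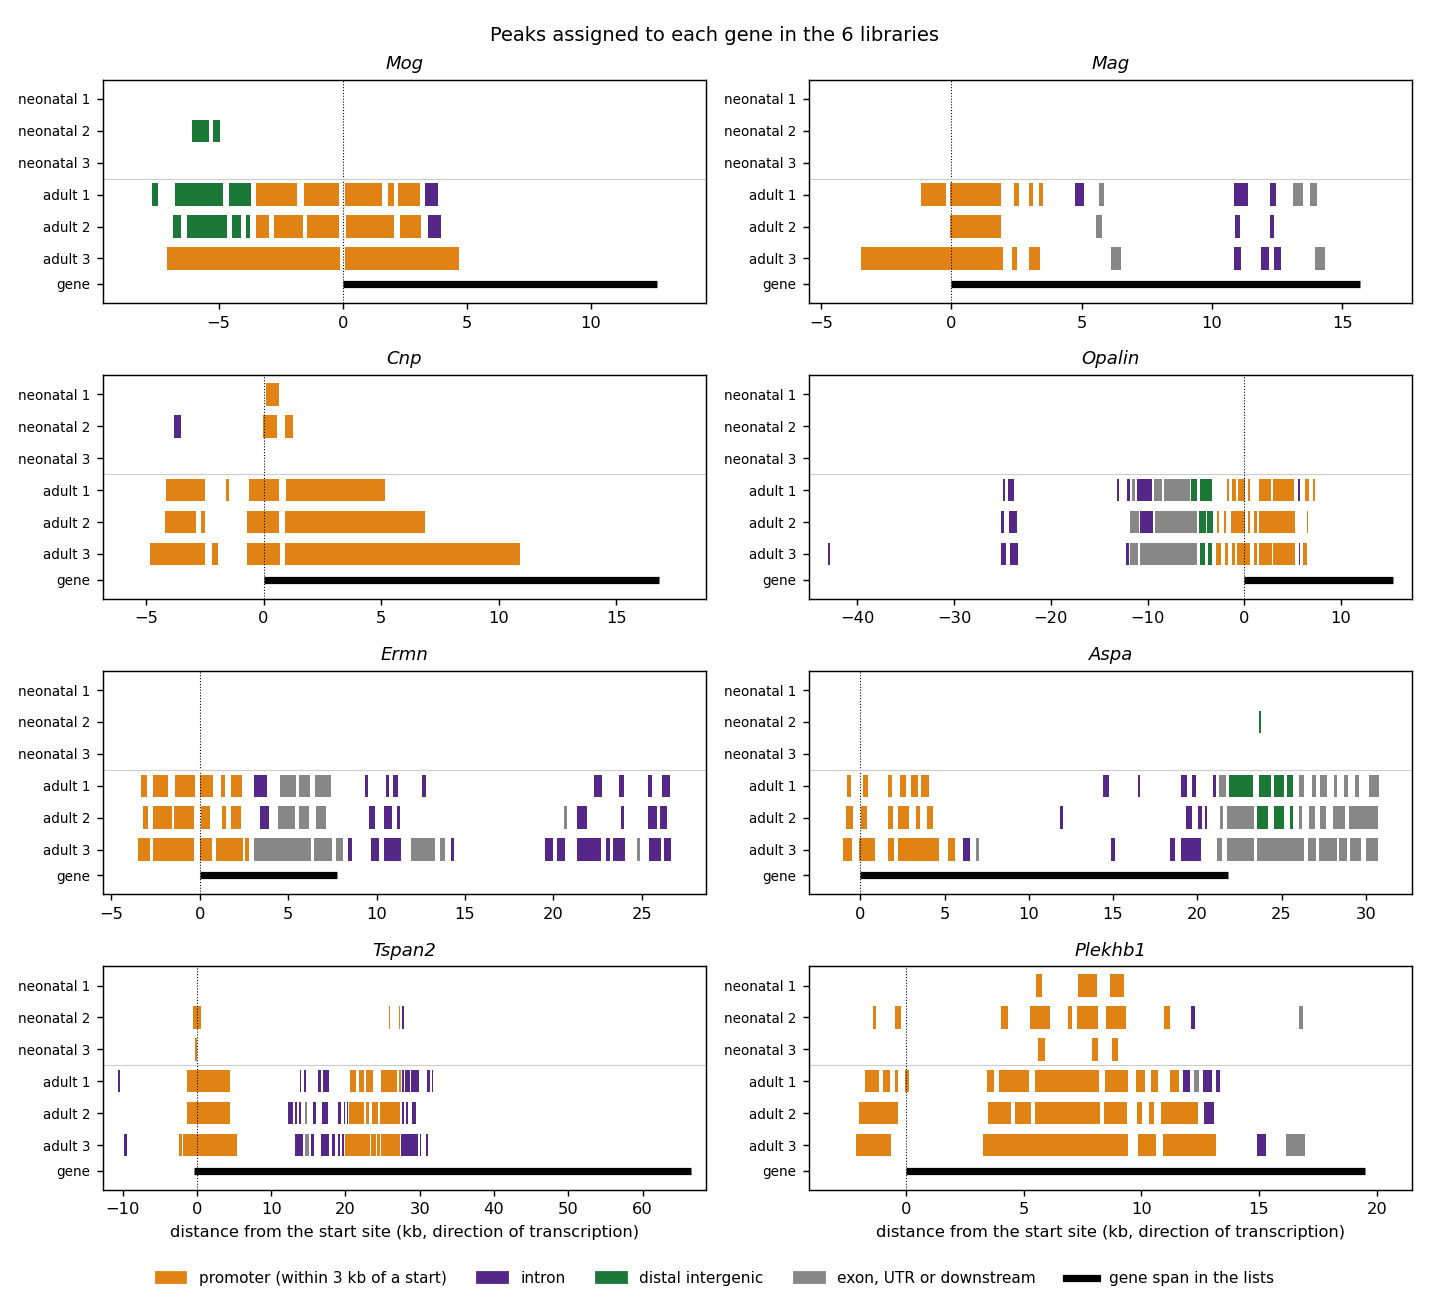
Position of every peak assigned to each gene (boxes, coloured by the authors' position class) in the 6 libraries, drawn against the distance from the start site in kb in the direction of transcription, with the gene as a black bar. Neonatal rows are empty for Mag, Opalin and Ermn. Adult rows show wide blocks over Cnp and Tspan2, at Mog in adult replicate 3, and many short ones over Ermn and Aspa. Most neonatal peaks of Plekhb1 lie inside the gene, and neonatal replicate 2 also has peaks upstream of it.

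The widest single peak was higher in every adult library than in every neonatal library for 8 of 8 genes, as for 57.9% of all genes. The median difference was 3300 bp over the 8 genes and 461 bp over all genes, and each gene had an exact permutation p of 0.1 and an adjusted p of 0.172 over all genes. Adult replicate 3 had the widest peak of each gene, and without that library the median difference over the 8 genes was 2008 bp. The genes fell in order from Cnp (0.387 ± 0.337 kb neonatal, 6.70 ± 2.97 kb adult) and Tspan2 (0.448 ± 0.594 and 6.29 ± 0.869 kb) to Aspa (0.0490 ± 0.0849 and 1.99 ± 0.732 kb) and Ermn (0 and 1.81 ± 1.21 kb, SD, n = 3 each). Between them lay Opalin, Plekhb1, Mog and Mag, with adult means of 4.33 ± 1.65, 3.88 ± 1.97, 3.61 ± 2.92 and 3.11 ± 2.02 kb (SD, n = 3 each), which overlapped within their spread.

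**Figure D4:**
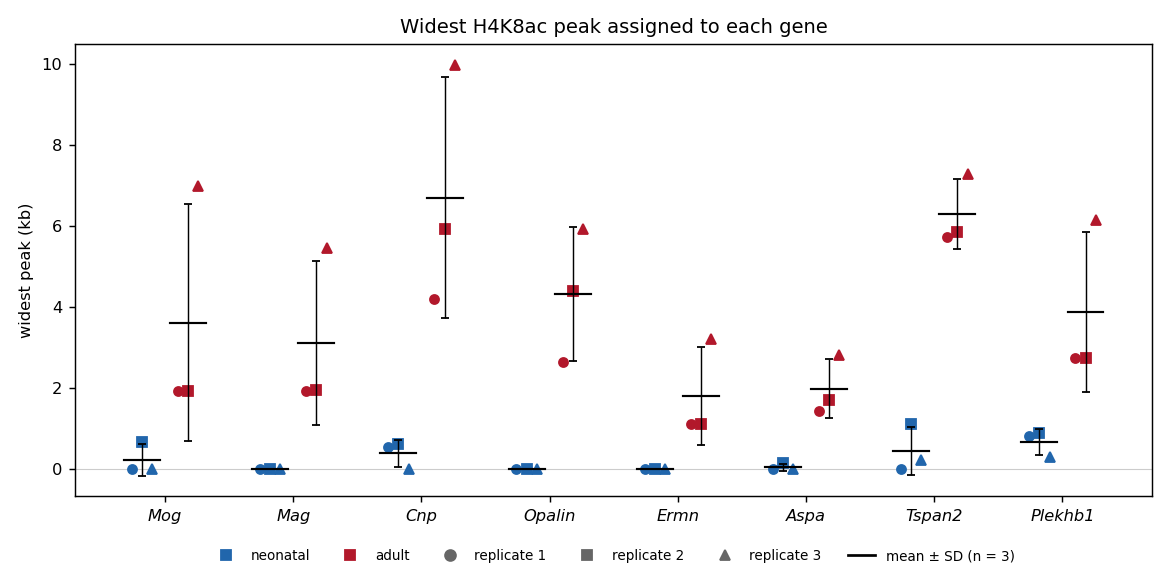
Width of the widest H4K8ac peak assigned to each gene (kb, vertical axis) in each library, neonatal in blue and adult in red, with the mean as a black line and the SD over 3 libraries as an error bar. Adult points of Cnp and Tspan2 lie at 9.99 kb and below, down to 4.196 kb, and adult replicate 3 has the widest peak for each of the 8 genes.

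Promoter peaks, those within 3000 bp of an annotated start, were found on 2, 3 and 2 of the 8 genes in neonatal replicates 1, 2 and 3 and on all 8 genes in each adult library. Mog, Mag, Opalin, Ermn and Aspa had a promoter peak in 3 adult and 0 neonatal libraries, 5 of 8 genes against 12.1% of all genes with a promoter peak. Cnp had promoter peaks in neonatal replicates 1 and 2, Tspan2 in replicates 2 and 3 and Plekhb1 in all 3. The number of promoter peaks was higher in every adult library than in every neonatal library for 7 of 8 genes, all but Plekhb1, against 24.7% of genes with a promoter peak (exact permutation p = 0.1 for each of the 7, adjusted p = 0.398).

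The comparison changed where the lists were made equally long. Among the 7353 strongest peaks of each library, ranked by the authors' p-values, Mog, Mag and Opalin still had promoter peaks in the adult libraries only and in each of them, 3 of 8 genes against 4.12% of the 9904 genes with a promoter peak among these strongest peaks. Ermn kept its promoter peak in 2 adult libraries and Aspa in none. Cnp and Tspan2 kept theirs in 2 neonatal and 3 adult libraries and Plekhb1 in 3 and 3. Covered length at this list length was higher in every adult library for 6 of 8 genes, all but Ermn and Aspa, against 34.4% of the 10859 genes with a peak among these strongest peaks. The median difference was 4208 bp over the 8 genes and 383 bp over those 10859 genes (exact permutation p = 0.1 for each of the 6, adjusted p = 0.256).

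Intronic peaks of the 8 genes numbered 0, 3 and 0 in the neonatal and 37, 30 and 34 in the adult libraries. They were more numerous in every adult library for Mag, Opalin, Ermn, Aspa and Tspan2, 5 of 8 genes against 45.9% of genes with an intronic peak (exact permutation p = 0.1 for each, adjusted p = 0.218). Counted only in introns of the gene itself, a choice made after seeing the data, 3 of 8 genes had that order, Mag, Aspa and Tspan2: most intronic peaks assigned to Opalin and Ermn lay in introns of neighbouring genes, and 0 own-intron peaks remained in adult replicate 2 for Opalin and in adult replicate 3 for Ermn. Among the 7353 strongest peaks of each library no gene of the 8 had that order. The share of all genes was not computed for own introns or for intronic peaks among these strongest peaks. Distal intergenic peaks numbered 0, 3 and 0 in the neonatal and 9, 9 and 2 in the adult libraries. Only Mog, Opalin and Aspa had a distal peak in any library. Of these 3 genes only Opalin had more in every adult library (exact permutation p = 0.1, adjusted p = 0.25). The share among all genes with a distal peak was 39.8%. The distal count depended on adult replicate 3, in which distal peaks of Mog and Aspa were part of wide peaks of another class. Without that library all 3 of these genes had that order. By length, promoter peaks made up 59.2%, 62.2% and 63.4% of the covered bases of the 8 genes in the adult libraries.

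In the authors' deposited table of differential sites, 43634 of the 43888 listed sites were positive, taken here as higher in adult cells. The number of tested sites is not listed there. It was recovered from the raw and adjusted p-values as 54838, of which the positive sites make up 79.6%. The authors' deposited table names no direction. Positive values were taken to mean more signal in adult cells because 99.99% of positive sites overlapped an adult peak and 27.9% a neonatal peak, against 37.0% and 98.4% of negative sites. The 8 genes had 61 sites in the authors' deposited table, all of them positive. Each gene had at least 1 such site, as had 65.0% of all genes with a peak, and each had at least 1 promoter site, as had 64.4% of all genes with a promoter peak. The authors' deposited table gave a median log2 fold change of 3.30 over the 61 sites and of 2.41 over all 43888 listed sites. The median was 2.87 over the 29 promoter sites and 3.30 over the 19 intronic sites of the 8 genes, against 1.86 and 2.87 over all listed sites of these classes in the authors' deposited table. This table rests on the same libraries as the peak lists and is no independent support for them.

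**Figure D5:**
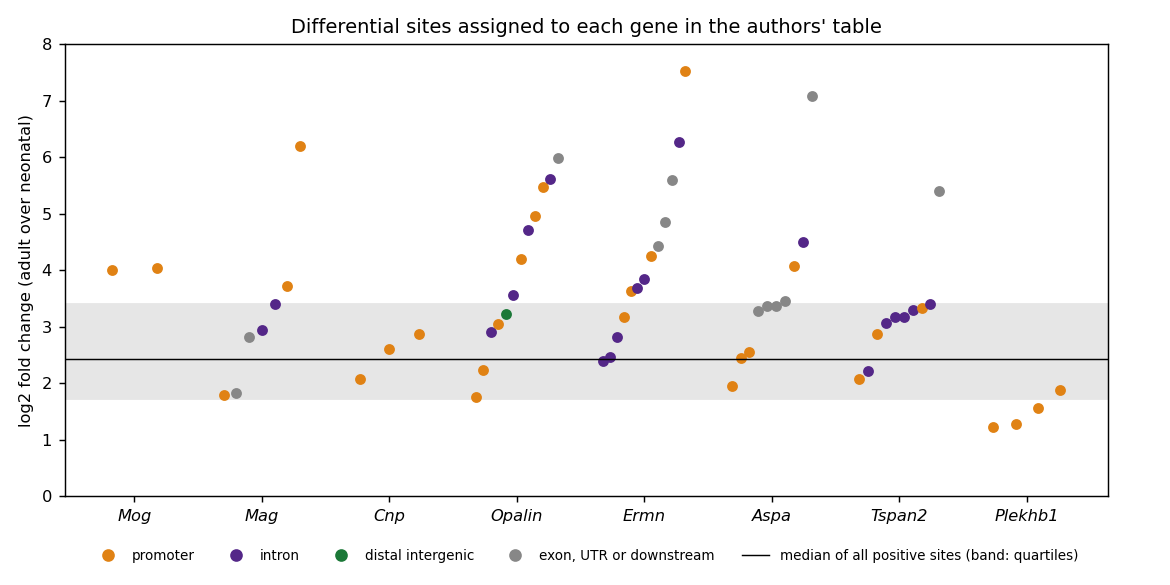
Log2 fold change of each differential site (points, coloured by position class, in order of size within a gene) in the authors' table, adult over neonatal, with the median of all positive sites as a line and their quartiles as a grey band. All sites of Mog lie above the band, all 4 of Plekhb1 lie below the median line, and Ermn has the highest value.

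The highest value belonged to Ermn, whose promoter site at -1115 bp from the start (58053780 to 58054179) had a log2 fold change of 7.52 (adjusted p = 2.24e-10), as listed in the authors' deposited table. All 13 Ermn sites of the authors' deposited table were at 2.39 or more. A Mag promoter site at -1972 bp from the start (30916646 to 30917045) had a log2 fold change of 6.19 (adjusted p = 1.66e-11) in the authors' deposited table, and the 7 Mag sites ranged from 1.80 upwards. For Opalin, the authors' deposited table gave its smallest p-value to a site at -9088 bp from the start, inside the neighbour Tll2, with a log2 fold change of 5.99 (adjusted p = 5.15e-13). Among its promoter sites in the authors' deposited table the smallest p-value was at -391 bp, with a log2 fold change of 4.95 (adjusted p = 1.09e-09).

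For Aspa the authors' deposited table had its highest value, a log2 fold change of 7.08 (adjusted p = 3.30e-09), just beyond the 3′ end of the gene, 22582 bp from the start. By p-value, the leading Aspa promoter site of the authors' deposited table had 4.08 (adjusted p = 4.94e-08). Tspan2 had 10 sites with a median of 3.17 in the authors' deposited table, and the one with the smallest p-value had 3.32 (adjusted p = 2.94e-07). This site lay near an internal start, 25977 bp downstream of the start used for distances (102734957), which is not the most upstream one in the lists. At the Tspan2 start itself, where neonatal replicates 2 and 3 had a peak, the authors' deposited table had a site, chosen after its values were seen, with 2.08 (adjusted p = 6.62e-05).

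Mog and Cnp had few sites, 2 and 3. The authors' deposited table gave the Mog sites a median log2 fold change of 4.02, with 4.03 (adjusted p = 7.21e-11) at the start, and the Cnp sites values of 2.07 to 2.87. Plekhb1 again stood at the low end: the authors' deposited table gave its 4 sites values of 1.23 to 1.89. All were under 2.04, a lower bound for the median of all tested sites that rests on the recovered number of sites. The highest of them came with an adjusted p of 5.94e-05 in the authors' deposited table.

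Other genes of the lineage were read from lists by the same counts. In the compact myelin list covered length was higher in every adult library for 8 of 8 genes. Mobp, which encodes a protein of the cytoplasmic face of compact myelin, was a gene of that list with promoter peaks in each adult library and in no neonatal one. For paranode and axon-glia contact genes covered length was higher in every adult library for 8 of 8. Gjb1, which encodes a connexin, and Ninj2, which encodes an adhesion protein, were genes of that list with promoter peaks in adult libraries only. Of 12 mature oligodendrocyte genes all 12 had that order of covered length and the protease gene Klk6 had an adult-only promoter peak. Of 12 transcriptional regulators all 12 had that order, with Nkx6-2 and St18 as the genes with adult-only promoter peaks. These counts stand beside 60.0% of all genes for covered length and 12.1% of genes with a promoter peak for adult-only promoters.

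Of the 8 OPC markers, 2 had longer coverage in every adult library, against 60.0% of all genes. By their means 4 of 8 were higher and 4 lower in adult libraries, the lower ones being Pdgfra, Ptprz1, Vcan and Sox5. Their sum, 3.81 to 29.7 kb in neonatal and 27.4 to 40.5 kb in adult libraries, was carried by Cspg4: without that gene, singled out after its values were seen, it was 2.46 to 17.1 kb in neonatal and 6.68 to 9.37 kb in adult libraries. A promoter peak was present on 8, 8 and 5 of 8 genes in neonatal and 7, 6 and 7 in adult replicates. Lists were then shortened to 7353 peaks, which kept all of neonatal replicate 3 but a small part of each adult list. A promoter peak was left on 8, 4 and 5 genes in neonatal and 0, 0 and 1 in adult replicates. At this length Pdgfra, Ptprz1 and Sox5 had a promoter peak in every neonatal library and in no adult one. This was the reverse of Mog, Mag and Opalin. With the full lists 0 of the 8 OPC markers had promoter peaks in neonatal libraries only and in each of them. The share of all genes with such a neonatal-only promoter peak was not computed at either length.

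Markers of other cell types were measured beside the 8 genes, whose summed length was 1.04 to 8.03 kb in neonatal and 77.9 to 116 kb in adult libraries. Mature oligodendrocyte genes covered 0.647 to 7.72 kb in neonatal and 116 to 183 kb in adult libraries, with promoter peaks on 1, 11 and 5 of 12 genes in neonatal and on all 12 in adult replicates. Astrocyte markers covered 0.159 to 8.30 and 19.3 to 30.7 kb, with promoter peaks on 1, 5 and 1 of 8 genes in neonatal and 5, 4 and 6 in adult replicates and none on Aqp4 in any library. Of these 8, 6 had a higher and 2, Gfap and Gja1, a lower mean in adult libraries. Fibroblast and pericyte markers covered 1.35 to 13.8 and 22.0 to 32.8 kb, with promoter peaks on 1, 4 and 1 of 8 and on 2, 3 and 2 of 8. Nearly all of that length was Cspg4, which is also an OPC marker: the other 7 genes covered 0 to 1.18 kb in neonatal and 1.33 to 1.70 kb in adult libraries. Dcn, Lum, Rgs5 and Kcnj8 were at 0 in every library, Col1a2 and Pdgfrb had a lower mean in adult libraries, and the median difference over the list was 0 kb.

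Neuronal markers covered 0 to 2.12 and 3.51 to 5.97 kb, with promoter peaks on 0, 4 and 1 of 8 and on 4, 2 and 2 of 8, and Snap25, Slc32a1 and Stmn2 were at 0 throughout. Without Rbfox3, which carried the adult sum, they covered 0 to 1.58 and 0.391 to 0.555 kb. Gad1, Gad2 and Syt1 had a lower mean in adult libraries, and the median difference over the list was 0 kb. Endothelial markers covered 0 to 1.87 and 4.35 to 6.22 kb, with promoter peaks on 0 of 8 in neonatal libraries and on 2 of 8, Pecam1 and Kdr, in each adult library, and Tek, Slco1a4 and Ly6c1 were at 0. Without Pecam1 they covered 0 to 0.398 and 1.05 to 2.36 kb. Of the microglial markers Cx3cr1 alone had a peak, over 3.73 to 4.10 kb in adult libraries, and the other 7 were at 0. The adult sums of the neuronal, microglial and fibroblast lists rested mostly on 1 gene each. Without Slc1a3 the astrocyte list covered 0.159 to 6.66 kb in neonatal and 9.52 to 14.9 kb in adult libraries. A higher adult mean was found for 12 of 12 mature oligodendrocyte, 6 of 8 astrocyte and 4 of 8 endothelial genes. It was found for 2 of 8 neuronal, 2 of 8 fibroblast and pericyte and 1 of 8 microglial genes. The share of all genes with a higher adult mean was not computed. The part of mature oligodendrocytes or of other cells in the adult values was not tested.

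The 5 genes outside the list whose covered lengths over the 6 libraries were nearest the mean of the 8 genes were Pigt, Glod4, Phyhd1, Gm13866 and Zdhhc20. Their Euclidean distances, on the scale log2(covered bp + 100), were 0.872, 0.889, 1.03, 1.06 and 1.07. Pigt, the nearest, had 0.151, 0.510 and 0 kb in the neonatal and 8.23, 9.05 and 13.3 kb in the adult libraries. The 8 genes themselves lay at distances from 1.42 (Aspa, rank 149 among genes) to 5.23 (Plekhb1, rank 6839). The 5 genes were picked for their small distances, so being nearer than the 8 follows from that choice.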

How the data were processed

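H4K8ac was mapped in 3 neonatal and 3 adult libraries, grouped by the age in the labels. The authors deposited 1 peak list per library. Per the file headers it gives for each peak a score, a fold enrichment (a linear ratio), −log10 of the p-value and q-value, the nearest gene and a position class. The submitters' processing notes name Trim Galore, Bowtie2 2.4.5, SAMtools, deepTools, MACS2, DiffBind, ChIPseeker and the build GRCm38. Their settings are not given in the sources used here. A further file, the authors' deposited table of sites that differ between the ages, holds per site the log2 fold change and its raw and adjusted p-value. How reads were normalised for it is not given in the sources used here.

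From these lists, covered length, widest peak and peaks per class were computed for every gene with a peak. A gene without a peak has the value 0. Ages were compared by the exact permutation test (20 arrangements) with Benjamini-Hochberg adjustment over all genes, using Python 3.11.15, numpy 2.4.6, pandas 2.3.3 and scipy 1.17.1. The calculation was tested on simulated data. Each site of the table took the gene and class of the deposited peak sharing the most bases with it. Peaks are assigned to the nearest start site, so values per gene can include a neighbour's peaks or lack peaks close to the gene. These values also grow with the length of a list.

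The members and lists were chosen with earlier results of these data known. Named are the 8 members, per member the site with the smallest p-value in a position class, list genes with promoter peaks at 1 age only (some are not reported here), and the 5 nearest profiles. Same-numbered libraries of both ages were not shown to be paired.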

Additional observations from a re-analysis of the deposited data

How the results depend on the processing

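Covered length kept its direction for all 8 genes under every alternative run except 1: per Mb of covered bases the Plekhb1 difference was -197 bp. The median difference in covered length over the 8 genes, 10432 bp, was 4208 bp with the 7353 strongest peaks of each library and 7924 bp without peaks that lie only inside other genes, an alternative chosen after seeing the data. With 1 library left out it was 8935 to 11606 bp. The widest peak, with a median difference of 3300 bp, was 2008 to 4009 bp with 1 library left out and 10236 bp when peaks within 1000 bp were joined. With the 7353 strongest peaks, genes with an adult-only promoter peak went from 5 to 3, those with more intronic peaks in every adult library from 5 to 0, and those with more distal peaks from 1 to 0. Counted only in a gene's own introns, an alternative also chosen after seeing the data, the intronic count was 3. With 1 library left out the distal count was 1 to 3 and the intronic count 5 to 6. The count of genes with separate covered lengths was 8 and that with an adult-only promoter 5. Leaving out a library only removes a condition, so these counts could not fall and do not measure stability. Per Mb of covered bases 6 genes had every adult library above every neonatal one, all but Plekhb1 and Cnp. Cnp held 185 bp per Mb in neonatal replicate 1 and 173 bp per Mb in adult replicate 1. The share over all genes was not computed for the count of 6 or for the counts with 1 library left out. It was also not computed for own introns, or for intronic and distal peaks among the strongest peaks. A replicate block was a sign-flip test over 3 same-numbered pairs, with a smallest p of 0.25. By construction it could not change the median differences of 10432 and 3300 bp or the counts of 8 and 5. It is therefore no check of these values. Deviations of same-numbered libraries correlated by -0.0586, 0.0149 and 0.0812, and not every library correlated best with its own number. Read depth is not known, so how far the absence of neonatal peaks depends on it was not tested.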
